A study of Mus musculus with 7 samples.

Results

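The adult globin genes Hba-a1, Hba-a2, Hbb-bs and Hbb-bt and the heme synthesis enzymes Alas2, Alad, Urod, Cpox and Fech were followed in RNA of cells that had been sorted from mouse bone marrow and labelled sinusoidal endothelial. These 9 genes were chosen by name from the 50435 rows of the deposited expression table, and all 9 were present and passed the filter on low values. Wild-type recipients were irradiated and given Zbtb46dtr bone marrow, whose cells carry the receptor for diphtheria toxin under control of Zbtb46, a marker gene of classical dendritic cells. At 8 weeks, recipients behind 3 samples received 200 ng of diphtheria toxin (DT) in 100 ul of PBS into the peritoneum and those behind 4 samples only the PBS, and all were harvested after 1 day. Both groups therefore carried donor blood cells with the receptor, while cells of the host that survive irradiation, the vessel lining among them, lacked it. Which donor cell types made the receptor, and whether red cell precursors did, is not examined here. For strain, age and sex, the sources used here give no entry. Cells were sorted as CD31-positive and Sca1-negative and negative for a lineage stain made of CD45, Ter119, Gr1 and CD11b. Ter119 is an antigen of the red cell lineage, so late red cell precursors were among the cells the sort was set to leave out.

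Hemoglobin is built from alpha and beta globin chains, each holding a heme. Heme synthesis starts in the mitochondrion, where 5-aminolevulinate synthase (Alas1 in most cells, Alas2 in red cell precursors) makes the first intermediate. The path runs through the cytosol (Alad, Uros and Urod among its enzymes) and returns to the mitochondrion (Cpox, Ppox), where Fech inserts the iron. In marrow, red cell precursors make nearly all globin and most heme, and globin and Alas2 transcripts are known to accumulate late in their maturation.

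Levels are given in RPM, the reads of a gene scaled to a library of 1000000 reads. With the most frequent low value taken as 1 read, the libraries held an estimated 33195021 to 51245260 reads. On that scale the members were covered by between 79 reads (Alas2 in PBS replicate 1) and 53305 reads (Hbb-bs in DT replicate 3), and 3 reads correspond to 0.0585 to 0.0904 RPM. The libraries were amplified without molecular tags, so such counts cover counting error only. The labelled cell type was poorly represented by its defining markers: of the 6 sinusoidal genes Stab1, Stab2, Flt4, Emcn, Plvap and Lyve1, only 1 passed the filter, and their sum was 0.959 to 5.67 RPM across PBS libraries and 2.91 to 7.85 RPM across DT libraries. The values below describe the sorted samples as a whole, in which fewer cells of a type and less RNA per cell cannot be told apart. Among 14100 genes tested with limma on log2(RPM + 1), 32% passed an adjusted p of 0.05, 13.4% as higher and 18.6% as lower in DT, and the median log2 change was -0.23. Median-ratio scaling moved that median to -0.02 and the calls from 1894 higher and 2622 lower to 2363 and 1321.

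In DT, 4 of the 9 members were higher (Hba-a1, Hba-a2, Hbb-bs and Alas2), 2 were lower (Alad and Cpox) and 3 did not pass (Hbb-bt, Urod and Fech). Genes of the protein chains and of the first erythroid enzyme thus stood higher, and 2 later enzymes of the same pathway stood lower, in the same libraries. The 6 calls among 9 members stand beside the 32% of all genes, the 4 higher beside 13.4% and the 2 lower beside 18.6%. The groups did not overlap in 7 members, against 40.9% of all tested genes. Of these, 5 were higher (16.1% of all genes) and 2 lower (24.7%). The median log2 change was 1.63 over the 4 globins and -1.23 over the 5 enzymes, beside the -0.23 of all genes. The members kept these directions under each of the 18 alternatives tried.

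**Figure D1:**
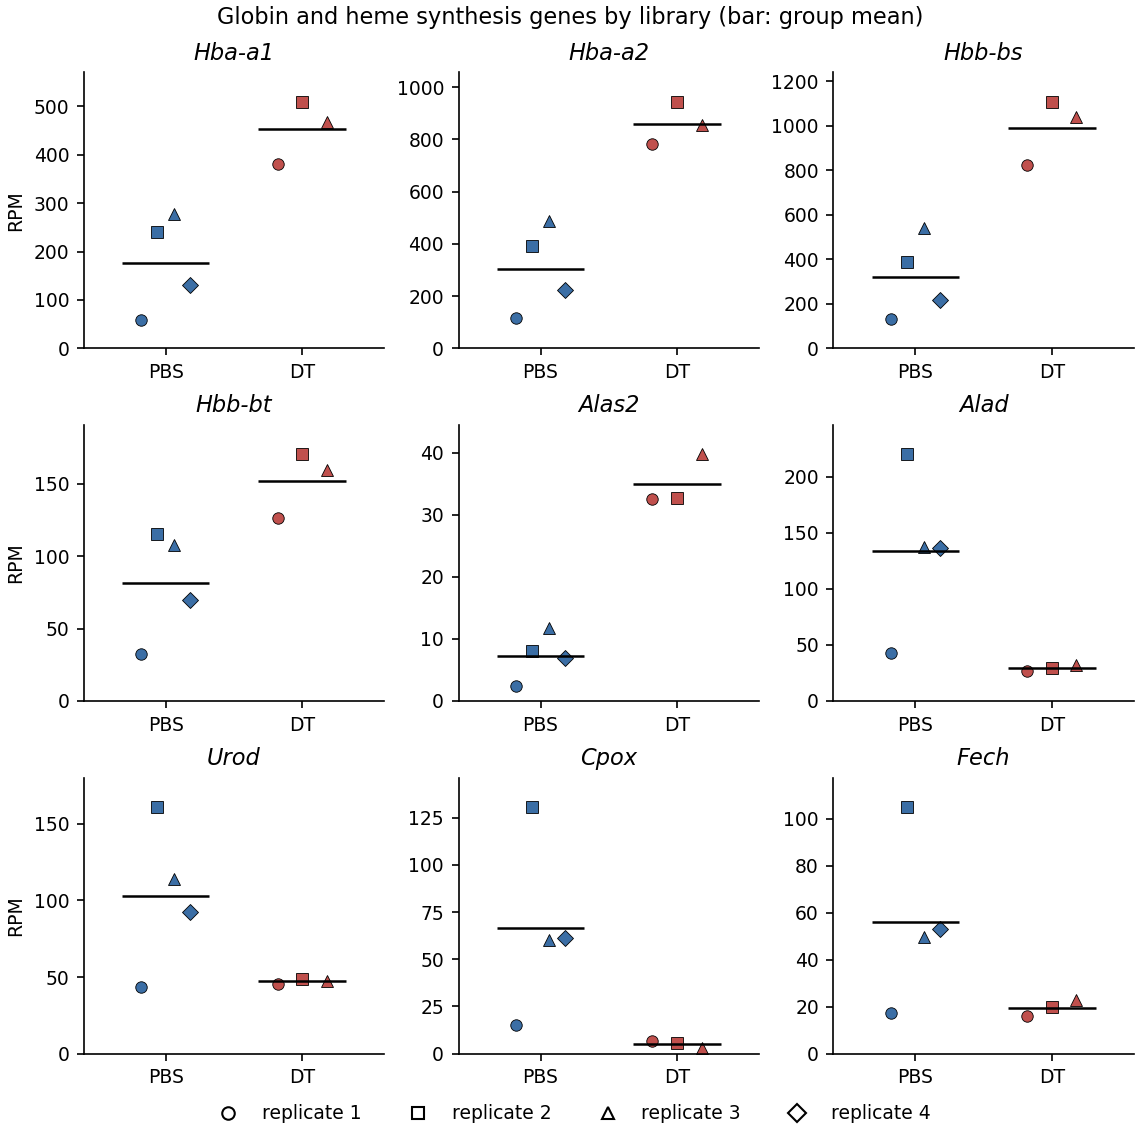
RPM of each of the 9 genes in the 4 PBS and 3 DT libraries, with 1 symbol per replicate number and a bar at the group mean. The DT points lie above all PBS points for the 4 globins and Alas2 and below them for Alad and Cpox, and PBS replicate 1 is the lowest PBS library in all 9 panels.

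The globin genes come in pairs of near copies, which limits how far reads can tell them apart. Hba-a1 (ENSMUSG00000069919.7) lies at chr11:32283511-32284465 and Hba-a2 (ENSMUSG00000069917.7) at chr11:32296489-32297298, both on the plus strand of mm10 in GENCODE vM21. Hbb-bs (ENSMUSG00000052305.6) lies at chr7:103826534-103828096 and Hbb-bt (ENSMUSG00000073940.3) at chr7:103812524-103813996, both on the minus strand. The coding sequences of the alpha pair are 429 bases long and differ at 1 base, and those of the beta pair are 444 bases long and also differ at 1 base. Counted from the A of the start codon, with the base of Hba-a1 or Hbb-bs first, the differences are C381T in the alpha pair and C417T in the beta pair. The 50 coding bases around each difference, the length of 1 read here, are shown with the differing base in capitals.

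Hba-a1: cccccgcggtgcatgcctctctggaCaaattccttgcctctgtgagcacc
Hba-a2: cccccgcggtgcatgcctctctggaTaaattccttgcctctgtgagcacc
Hbb-bs: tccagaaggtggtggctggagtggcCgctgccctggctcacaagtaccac
Hbb-bt: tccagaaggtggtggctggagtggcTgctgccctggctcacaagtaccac

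Of the 50-base windows of the longest coding transcript, 67.5% of those of Hba-a1 and 86.9% of those of Hba-a2 occur in the other alpha gene. For the beta pair the shares are 65.8% in Hbb-bs and 58.3% in Hbb-bt, and within the coding sequence only windows that cover the 1 differing base separate the copies. How the authors divided reads that fit both copies was not stated in the sources used here, and values of single globin genes are therefore uncertain. Sums of a pair do not depend on how shared reads were split, but would if such reads were dropped or counted in both.

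The alpha globin genes rose together. Hba-a2 was at 114, 393, 489 and 224 RPM in PBS replicates 1 to 4 and reached 781, 944 and 854 RPM in DT replicates 1 to 3. Every DT library lay above every PBS library, and within PBS the spread was more than 4-fold. Its group means were 305 ± 168 RPM (SD, n = 4) after PBS and 859.9 ± 81.4 RPM (SD, n = 3) after DT, a 2.82-fold rise (log2 change 1.69 ± 0.41 SE; limma, adjusted p = 0.0125). Hba-a1 was at 58.5, 239.8, 277 and 132 RPM without toxin and reached 379.9, 509 and 468 RPM in DT. Its order over the PBS libraries was the same as that of Hba-a2, and its groups did not overlap either. The rise was 2.56-fold (log2 change 1.57 ± 0.45 SE; limma, adjusted p = 0.0242), but the call was lost without PBS replicate 4 (0.0609), DT replicate 1 (0.0530), DT replicate 2 (0.0812) or DT replicate 3 (0.0768), with adjusted p from 0.00405 to 0.115 over all alternatives. Hba-a2 held 62.1% to 66.2% of the alpha reads in PBS and 64.6% to 67.3% in DT, so the balance within the pair overlapped between groups.

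Of the beta globin genes, Hbb-bs rose and Hbb-bt did not pass. Hbb-bs, the more abundant beta gene, was at 133, 387, 543 and 216 RPM after PBS and reached 825, 1109 and 1040.2 RPM in DT. The lowest DT library was above the highest PBS library, PBS replicate 3. The means were 319.6 ± 182 RPM (SD, n = 4) and 991 ± 148 RPM (SD, n = 3), a 3.10-fold rise (log2 change 1.82 ± 0.40 SE; limma, adjusted p = 0.00803). Hbb-bt was at 32.3, 115, 108 and 69.8 RPM after PBS and reached 126, 170.3 and 159.8 RPM in DT. Its groups were close, with DT replicate 1 only just above PBS replicate 2. Its mean was 1.87-fold higher in DT and did not pass (log2 change 1.04 ± 0.38 SE; limma, adjusted p = 0.0601). The call for Hbb-bt depended on single choices: it passed in 9 of the 18 alternatives, among them all 3 other scalings and leaving out PBS replicate 1 (0.0279), 2 (0.0337) or 3 (0.0487), with adjusted p from 0.0134 to 0.196.

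Within the beta pair, the share of Hbb-bt was nearly constant in DT and varied in PBS. Its share of the beta reads was 19.6%, 23.0%, 16.6% and 24.4% in PBS replicates 1 to 4 and 13.28%, 13.32% and 13.32% in DT replicates 1 to 3. The 3 DT libraries nearly coincided and all lay below the PBS libraries, which themselves were spread over several points. The difference of 7.58 percentage points downward, from 20.9 ± 3.50% (SD, n = 4) to 13.3 ± 0.0219% (SD, n = 3), reached an exact two-sided permutation p of 0.0571, or 0.0952 after adjustment over the 5 single values tested this way. The smallest p that the 35 splits of 7 libraries allow is 0.0286. Between the chains the groups overlapped, with beta genes holding 48.8%, 44.2%, 45.9% and 44.6% of the globin reads in PBS and 45.04%, 46.8% and 47.6% in DT (exact permutation p = 0.686, adjusted p = 0.686, n = 4 and 3). The 4 globins together were at 338, 1135, 1416 and 642 RPM after PBS and reached 2113, 2732 and 2522 RPM in DT, a 2.78-fold higher mean (exact permutation p = 0.0571, adjusted p = 0.0952). They made up at most 0.142% of a PBS library and 0.273% of a DT library.

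**Figure D2:**
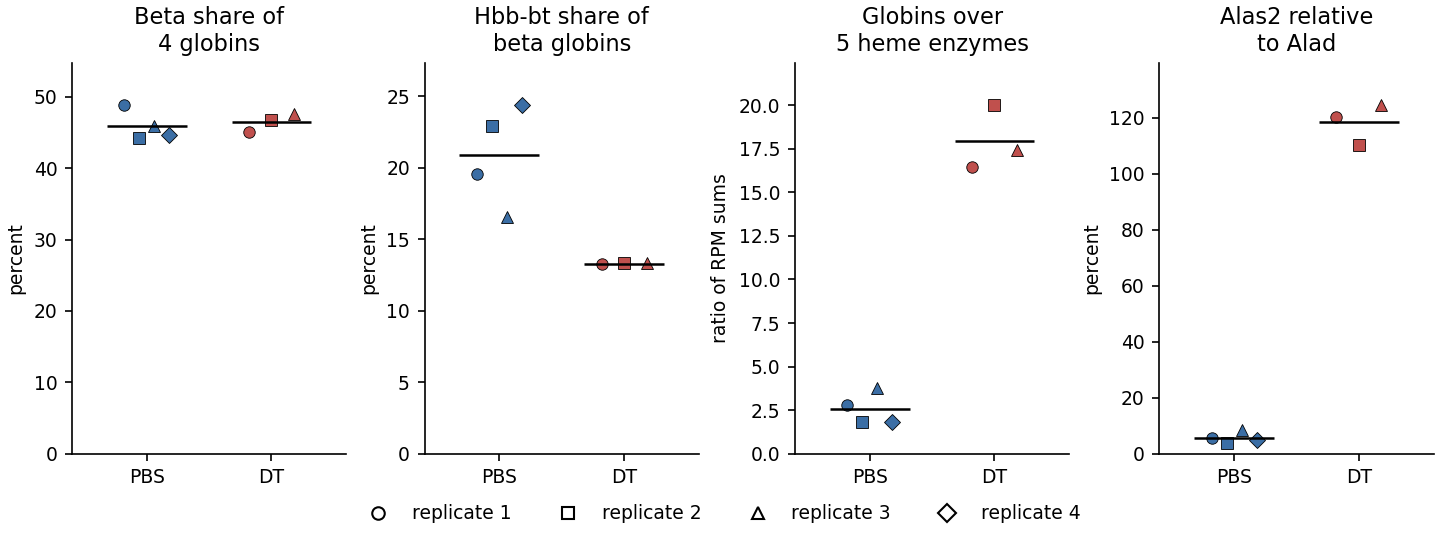
Ratios within each library, which do not depend on scaling between libraries, for 4 PBS and 3 DT libraries, with bars at group means. The beta share overlaps between groups, the Hbb-bt share is near 13.3% in all 3 DT libraries, and globins relative to the 5 enzymes and Alas2 relative to Alad are higher in DT without overlap.

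No other globin passed the filter on low values. The embryonic and minor beta-like genes Hbb-bh0, Hbb-bh1, Hbb-bh2, Hbb-bh3 and Hbb-y, the embryonic alpha-like gene Hba-x and the pseudogene Hba-ps4 were at or under 3 reads in every library. Of the theta globin genes, Hbq1b reached 1.15 RPM in PBS replicate 2 and Hbq1a 0.217 RPM in DT replicate 1. These 9 rows leave the adult set as the globins that could be tested, and embryonic globins were not detectable above 3 reads at this depth.

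Alas2 showed the largest rise of the members. It encodes the erythroid form of the first and rate-limiting enzyme and lies at chrX:150547375-150570638 on the plus strand. Alas2 was at 2.37, 8.12, 11.8 and 6.89 RPM after PBS and reached 32.5, 32.7 and 39.7 RPM in DT. The DT libraries were tight and far above the PBS range. The mean went from 7.30 ± 3.90 RPM (SD, n = 4) to 34.96 ± 4.10 RPM (SD, n = 3), 4.79-fold (log2 change 2.26 ± 0.40 SE; limma, adjusted p = 0.00261), and it passed in all 18 alternatives (adjusted p from 0.000306 to 0.0205). On either strand, 13.8% of the 50-base windows of the Alas2 transcript also occur in transcripts of other genes, mainly Apex2, a DNA repair endonuclease gene. Apex2 was at 12.8 ± 3.79 RPM after PBS and 13.3 ± 4.52 RPM after DT (limma, adjusted p = 0.917), a level above that of Alas2 in most PBS libraries and without a matching rise.

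Of the enzymes after Alas2, Alad and Cpox fell. Alad, which joins 2 molecules of the first intermediate, lies at chr4:62509169-62519918 on the minus strand. Alad was at 42.6, 219.8, 137 and 136 RPM after PBS and only 27.0, 29.6 and 31.9 RPM in DT, with PBS replicate 1 close to the DT range and the other PBS libraries far above it. The mean fell from 134 ± 72.4 RPM (SD, n = 4) to 29.5 ± 2.42 RPM (SD, n = 3), 4.54-fold lower (log2 change -1.93 ± 0.44 SE; limma, adjusted p = 0.00922, and 2.00e-05 to 0.0577 over the alternatives). Cpox, an enzyme of the mitochondrial intermembrane space that makes protoporphyrinogen, lies at chr16:58670292-58717636 on the plus strand and had the largest change of all members. Cpox was at 15.1, 131, 60.4 and 61.1 RPM after PBS and only 6.80, 5.42 and 3.04 RPM in DT. The lowest PBS library was still above the highest DT library. The mean fell from 66.8 ± 47.7 RPM (SD, n = 4) to 5.09 ± 1.90 RPM (SD, n = 3), 13.1-fold lower (log2 change -3.18 ± 0.59 SE; limma, adjusted p = 0.00316), and it passed in all 18 alternatives (4.16e-05 to 0.0290).

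Urod and Fech were lower on average without passing, and both turned on PBS replicate 1. Urod, the decarboxylase at the end of the cytosolic part, lies at chr4:116989965-116994413 on the minus strand. Urod was at 43.7, 160.9, 114 and 92.4 RPM after PBS, against 45.8, 49.0 and 47.2 RPM in DT, so that PBS replicate 1 lay just under the DT range and the others well above it. Its log2 change was -0.96 ± 0.35 SE (limma, adjusted p = 0.0635), and without PBS replicate 1 it was -1.32 (adjusted p = 0.000709; 0.000709 to 0.198 over the alternatives). Fech, which completes heme and lies on chromosome 18, was at 17.2, 105, 49.6 and 53.1 RPM after PBS, against 16.2, 19.8 and 22.8 RPM in DT. Here PBS replicate 1 fell inside the DT range. The log2 change was -1.23 ± 0.47 SE (limma, adjusted p = 0.0729), and -1.70 without PBS replicate 1 (adjusted p = 0.00129; 0.00129 to 0.220 over the alternatives). Without that library 4 members were lower and 5 higher, Hbb-bt among them. Without a filter on low values, where 29186 genes were tested, only Alas2 and Cpox passed, and Hba-a2, Hbb-bs and Alad had adjusted p of 0.0730, 0.0542 and 0.0577.

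Outside the members, Alas1 rose while Uros and Ppox did not pass. Alas1, the form of the first enzyme found in most cells, was at 76.6, 39.8, 43.7 and 40.4 RPM after PBS and reached 251, 293 and 337 RPM in DT. It rose 5.86-fold (log2 change 2.57 ± 0.23 SE; limma, adjusted p = 4.54e-05), and PBS replicate 1, the lowest PBS library for all 9 members, was the highest for Alas1. Uros, which closes the ring, was at 37.5 ± 19.7 RPM after PBS and 16.6 ± 3.98 RPM in DT. It did not pass (limma, adjusted p = 0.0889) but did without PBS replicate 1. Ppox, the step between Cpox and Fech, was at 67.8 ± 17.2 and 74.3 ± 11.2 RPM with overlapping groups (limma, adjusted p = 0.604). Along the pathway the first step was thus higher in DT in both its forms, and of the later steps named here Alad and Cpox fell.

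**Figure D3:**
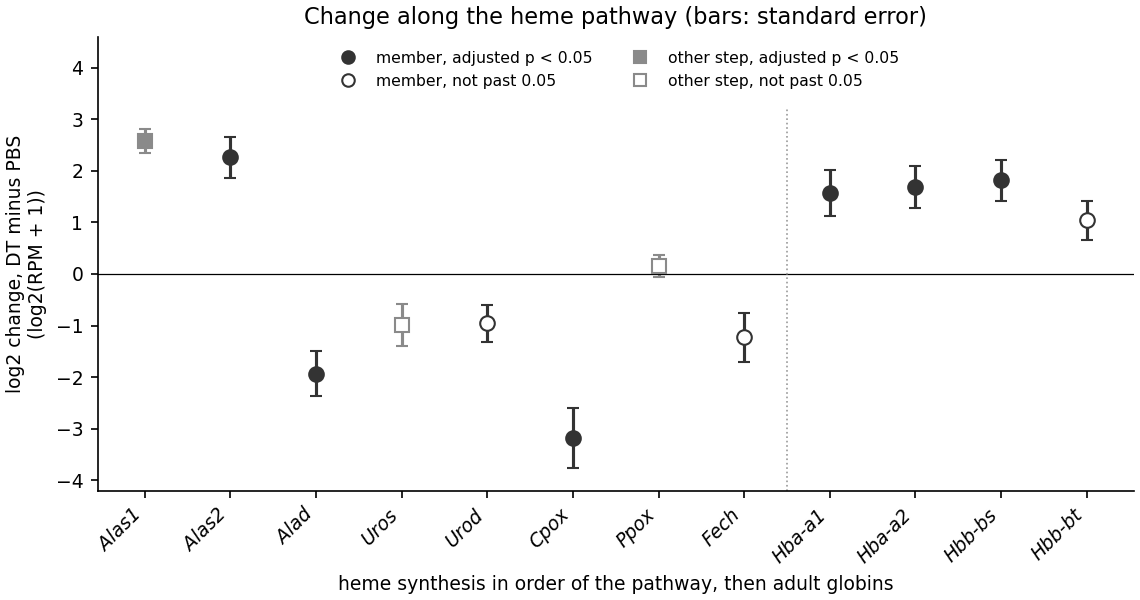
Log2 change (DT minus PBS, on log2(RPM + 1)) with its standard error for the steps of heme synthesis described here, in order, and for the adult globins, from limma on 4 PBS and 3 DT libraries. Filled symbols pass an adjusted p of 0.05: Alas1, Alas2, Hba-a1, Hba-a2 and Hbb-bs above 0, Alad and Cpox below it.

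The order of the members by level was compared per kilobase of the longest coding transcript, since RPM favours long transcripts. In PBS, Hba-a2 at 551 ± 303 and Hbb-bs at 509 ± 290.4 RPM per kilobase stood highest and did not differ beyond their spread. Hba-a1 at 253 ± 143 and Hbb-bt at 116 ± 54.5 RPM per kilobase followed, with Alad (107 ± 58.1), Urod (69.0 ± 32.7), Cpox (21.6 ± 15.4), Fech (8.55 ± 5.52) and Alas2 (3.58 ± 1.91) below them. Hbb-bt and Alad, and Alad and Urod, were within 1 SD of each other. In DT the upper end kept its shape, with Hbb-bs at 1578 ± 235 and Hba-a2 at 1552 ± 147 RPM per kilobase again inseparable, while the enzymes changed places. Urod (31.8 ± 1.08) and Alad (23.7 ± 1.94) came next to Alas2 (17.2 ± 2.01), above Fech (2.99 ± 0.504) and Cpox (1.64 ± 0.614 RPM per kilobase). Alas2 thus moved from the lowest of the 9 to above Fech and Cpox. Fech has coding transcripts of very different lengths, which makes its value per kilobase the least certain.

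Ratios within a library restate the divergence of these values without any scaling between libraries. Alas2 and Alad had separated the groups in opposite directions, so their ratio had to separate them too. Alas2 in RPM amounted to 5.56%, 3.70%, 8.63% and 5.05% of Alad in PBS and to 120%, 110.4% and 124% in DT. The 4 globins summed to 2.80, 1.82, 3.80 and 1.83 times the 5 enzymes in PBS and to 16.5, 20.0 and 17.4 times in DT. The 5 enzymes alone summed to 121, 624, 373 and 349.9 RPM after PBS and to 128, 137 and 145 RPM in DT, with a log2 difference of -1.21 (exact permutation p = 0.143, adjusted p = 0.179, n = 4 and 3). That sum includes Alas2, which rose, at 2.37 RPM in PBS replicate 1 and 32.5, 32.7 and 39.7 RPM in DT replicates 1 to 3. PBS replicate 1 had an enzyme sum below that of every DT library, an order that rests on Alas2. The globin sum of PBS replicate 1 was also the lowest of all 7. Against that library the mean of the DT libraries was 1.13-fold for the enzymes and 7.27-fold for the globins. Globins and Alas2 did not move in strict proportion either, since the globin sum was 93.1 to 143 times Alas2 in PBS and 63.6 to 83.5 times in DT.

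Relative to the group mean, the SD was larger among the PBS than among the DT libraries for all 9 members. PBS replicate 1 was the lowest of the 4 PBS libraries for all 9 members. PBS replicate 3 was the highest for Hba-a1, Hba-a2, Hbb-bs and Alas2, the same 4 genes that rose in DT, and PBS replicate 2 was the highest for Hbb-bt, Alad, Urod, Cpox and Fech. Over the 7 libraries the profiles of Hba-a1 and Hba-a2 were the nearest of all member pairs, with a root mean square distance of 0.10 after each log2 profile was centred on its mean. Hba-a2 and Hbb-bs followed at 0.12 and Hba-a1 and Hbb-bs at 0.19, while Urod and Fech, the nearest pair among the enzymes, were at 0.28. Hbb-bt was nearer to Hba-a1 (0.30) than to its own near copy Hbb-bs (0.43). Whether this reflects how reads were divided within the beta pair was not tested.

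The upstream bases of 3 members are shown because Hba-a2 and Alas2 rose while Cpox fell. Windows are the 250 bases before the RefSeq start on GRCm38.p6, 5′ to 3′ on the strand of the gene, printed up to the first base of the GENCODE gene. Capitals mark GATAA, the core that GATA factors bind, CACCC, the core that Klf1 binds, and CCAAT, the box bound by NF-Y, each searched on both strands. Hba-a2 is shown for chr11:32296242-32296488, Alas2 for chrX:150547167-150547374 and Cpox for chr16:58669958-58670207, all on the plus strand. The Cpox window ends before its GENCODE gene, which starts at 58670292.

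Hba-a2: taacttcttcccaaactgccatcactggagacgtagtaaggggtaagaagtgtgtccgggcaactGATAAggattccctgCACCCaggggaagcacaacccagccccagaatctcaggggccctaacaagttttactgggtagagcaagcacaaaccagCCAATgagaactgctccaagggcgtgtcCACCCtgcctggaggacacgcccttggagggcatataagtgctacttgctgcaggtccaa
Alas2: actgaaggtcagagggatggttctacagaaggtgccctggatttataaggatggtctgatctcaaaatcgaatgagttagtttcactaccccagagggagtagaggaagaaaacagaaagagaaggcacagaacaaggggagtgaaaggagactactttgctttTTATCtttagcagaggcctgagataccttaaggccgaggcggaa
Cpox: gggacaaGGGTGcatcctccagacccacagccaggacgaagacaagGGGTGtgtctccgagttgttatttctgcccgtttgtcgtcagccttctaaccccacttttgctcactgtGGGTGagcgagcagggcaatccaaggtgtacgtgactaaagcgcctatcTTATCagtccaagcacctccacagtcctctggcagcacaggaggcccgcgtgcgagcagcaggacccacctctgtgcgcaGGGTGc

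GATAA was found once in the full window of Hba-a1, Hba-a2, Hbb-bs, Hbb-bt, Alas2 and Cpox, against 22.6% of 32841 promoters of the same length with at least 1 match. The bases around the match are the same in Hba-a1 and Hba-a2, so these windows are not separate occurrences. GATAA was not found in the windows of Alad (2 annotated starts) and Urod, and Fech is named only. CACCC was found 3 times in Alas2, in adjacent copies on the other strand 30 to 40 bases before the RefSeq start, within the GENCODE first exon and so not printed. It was found 2 times in Hba-a2 and 4 times in Cpox, and 52.0% of promoters hold it. CCAAT was found in the windows of all 4 globins, Alad and Urod but not in those of Alas2 and Cpox, and 33.9% of promoters hold it. GATAA and CACCC were found both in Cpox, which fell, and in Alas2, which rose, with CACCC at different distances from the start. A link between these matches and the direction of change was not tested. Such matches are a description of the sequence, and binding was not measured here.

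Genes that serve the pathway moved in both directions. Of 16 tested genes of heme transport and mitochondrial handling, 1 was higher and 3 were lower, with a median log2 change of -0.74. Tspo, an outer membrane protein that binds porphyrins, rose from 113 ± 14.3 to 262 ± 16.8 RPM (limma, adjusted p = 0.000196), and passed in all 18 alternatives. Its erythroid relative Tspo2 fell from 3.65, 103, 59.8 and 52.7 RPM to 1.26, 4.19 and 0.820 RPM, with PBS replicate 1 inside the DT range (adjusted p = 0.0133), but not with voom, without DT replicate 3 or without a filter on low values. Tmem14c, which carries the precursor of protoporphyrin into the mitochondrion, fell from 196 ± 80.8 to 96.3 ± 8.43 RPM (adjusted p = 0.0350), and Fam210b, a mitochondrial protein of heme-making cells, from 16.3 ± 7.95 to 5.18 ± 2.47 RPM (0.0425); the call held in 9 of 18 alternatives for Tmem14c and in 7 for Fam210b. The count of falls in this list was 10 without PBS replicate 1, 2 without PBS replicate 2 or DT replicate 2, 1 without PBS replicate 3, PBS replicate 4 or DT replicate 1, and 0 without DT replicate 3. Slc25a37, the iron importer of erythroid mitochondria, was at 61.5 ± 6.61 and 55.2 ± 3.75 RPM and did not pass in any of the 18. Of 12 genes of iron supply and iron-sulfur clusters, 8 were lower and 2 higher, with a median of -0.94. The count of falls was 9 without PBS replicate 1, 6 and 5 without PBS replicates 2 and 3, 5 without PBS replicate 4, and 4, 5 and 3 without DT replicates 1, 2 and 3. Tfrc, the transferrin receptor that brings iron into red cell precursors, fell from 128 ± 46.0 to 52.5 ± 4.59 RPM (adjusted p = 0.00390), and Slc11a2, which carries iron out of the endosome, from 72.7 ± 14.6 to 36.9 ± 2.27 RPM (0.00475). Ncoa4, which delivers ferritin for breakdown, rose 2.30-fold (0.00726). These 3 calls held in all 18 alternatives.

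Of 8 tested genes of heme breakdown and scavenging, 4 rose, 1 fell and 3 did not pass, with a median log2 change of 1.81. Hmox1, the inducible heme oxygenase, rose from 13.9 ± 3.11 RPM to 129.7, 122 and 349.9 RPM in DT replicates 1 to 3 (limma, adjusted p = 7.15e-05), with DT replicate 3 far above the other DT libraries. Hp, which binds free hemoglobin and is also a neutrophil granule protein, rose 25.4-fold (7.76e-07). Spic, a transcription factor of macrophages that recycle red cells, rose from 0.918 ± 0.835 RPM to 11.4, 15.9 and 36.0 RPM, again highest in DT replicate 3 (adjusted p = 0.000525). Blvrb, a biliverdin reductase abundant in red cells, fell 5.41-fold (0.000429), whereas Hmox2, the constitutive oxygenase, was at 112 ± 7.58 and 116 ± 5.67 RPM (0.783). Of 7 heme-sensing genes, Bach2, a heme-binding repressor of B cells, fell 2.61-fold (0.00171) and none passed as higher. Eif2ak1, the heme-regulated kinase that holds back globin synthesis when heme is short, was at 50.2 ± 6.62 and 51.7 ± 4.80 RPM (0.849).

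Marker lists of red cell precursors and other blood cells moved alongside the members. All 12 early erythroid genes were lower in DT, with a median log2 change of -3.68 (7 passed without a filter, 4 with voom, and 10 or 12 with any library left out). Their sum was 761, 10915, 6790 and 6714 RPM in PBS replicates 1 to 4 and only 290.4, 388 and 220.1 RPM in DT. PBS replicate 1 was the lowest PBS library for all 12. Car1 and Car2 make up most of that sum. Of 15 tested late erythroid genes 4 were lower and none higher, with a median of -1.89 and sums of 205 to 736 RPM over the PBS and 211 to 245 RPM over the DT libraries; 11 were lower without PBS replicate 1, 2 without DT replicate 3 and 0 with voom. Slc4a1, the anion exchanger of the red cell membrane, was at 0.181 to 15.5 RPM after PBS and 1.63 to 5.56 RPM after DT (limma, adjusted p = 0.536). None of the 15 late erythroid genes passed as higher, while Hba-a1, Hba-a2, Hbb-bs and Alas2 did. In 1 of the 15, which did not pass, every DT library lay above every PBS library. The globins relative to the early erythroid sum were at 0.444, 0.104, 0.209 and 0.0955 in PBS and at 7.28, 7.05 and 11.5 in DT. The log2 difference was 5.59 (exact permutation p = 0.0286, the smallest possible, adjusted p = 0.0952). In DT the globin sum was higher and the early erythroid sum lower, each without overlap. The ratio therefore had to separate the groups, and its p is no further evidence of a change.

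All 13 neutrophil genes were higher in DT, with sums of 1961 to 4411 RPM over the PBS and 59002 to 62960.2 RPM over the DT libraries. Of 12 monocyte and macrophage genes 11 were higher, with sums of 393 to 764 RPM and 6752 to 8695 RPM. All 6 T and natural killer cell genes were higher, at 21.5 to 53.4 RPM and 309 to 334 RPM, and 5 of 8 B-lineage genes were lower, at 5878 to 10895 RPM and 6424 to 7355 RPM. The B-lineage falls numbered 3 without a filter or with median-ratio scaling, and 4 to 6 with any 1 library left out. None of 4 platelet genes passed, at 50.9 to 205 RPM and 47.7 to 143 RPM, and of 7 reticulocyte and red cell enzymes 4 were lower, Blvrb again among them, at 1341 to 2728 RPM and 1677 to 1836 RPM. Leaving out any 1 of PBS replicates 3 and 4 and DT replicates 1 and 3 left 2 of these calls. Of 7 tested pan-endothelial genes only Flt1, a receptor of vascular growth factors, was higher, at most 2.69 RPM in any library. Flt1 was under the filter on low values, so not tested, when any 1 of the DT libraries was left out. All 12 listed pan-endothelial genes summed to 131 to 146 RPM and 107 to 130.3 RPM. Only 3 of them averaged 5 RPM or more. Sums of lists include genes under the filter on low values. Among the 4 PBS libraries, PBS replicate 1 had the highest neutrophil, monocyte and macrophage, T and natural killer, and B-lineage sums. It had the lowest sums for the reticulocyte and red cell enzymes and the pan-endothelial list, and neither extreme for platelet genes. The part of these cell types in the changes of the members was not tested.

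**Figure D4:**
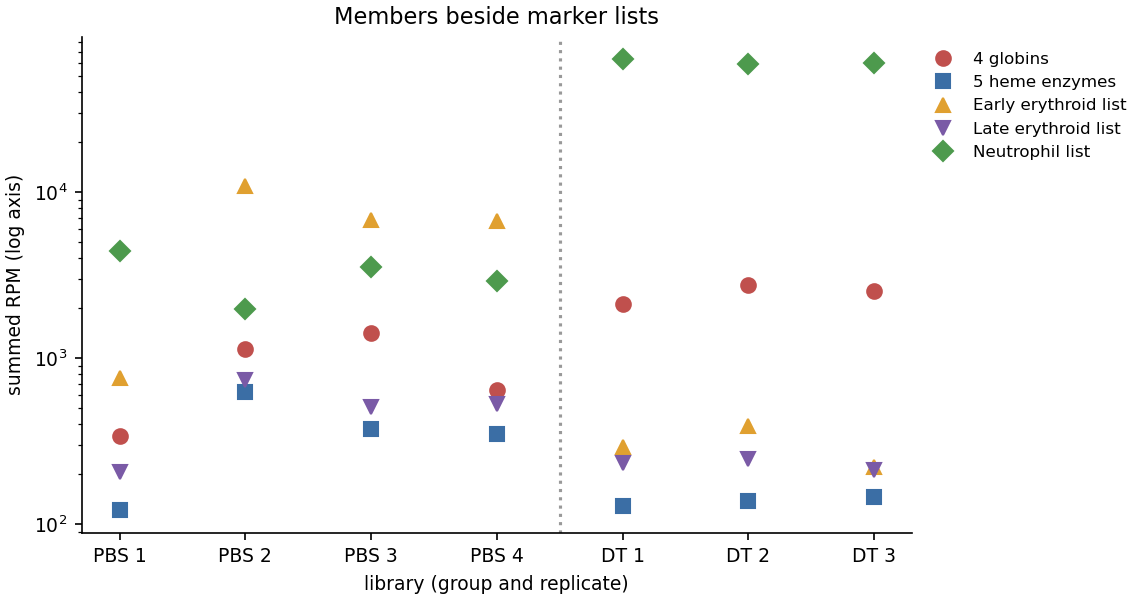
Summed RPM (log axis) of the 4 globins, the 5 heme enzymes and the early erythroid, late erythroid and neutrophil marker lists in each of the 7 libraries. From PBS to DT the globin and neutrophil sums are higher and the early erythroid sum is lower, while the enzyme and late erythroid sums of DT lie near those of PBS replicate 1. The enzyme sum mixes Alas2, which rose, with enzymes that were lower in DT.

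Members were left out of a search for like profiles. Among the 8040 genes that averaged 10 RPM or more, those whose centred log2 profile over the 7 libraries was nearest to the mean of the 4 globins were Arap3, Tbc1d2b, St3gal5, Wipi1 and Pdxk, at root mean square distances of 0.20 to 0.32 (Wipi1 and Pdxk did not pass the test between groups). Arap3 was at 10.2 RPM after PBS and 33.5 RPM after DT on average. Nearest to Alas2 outside the members were Chd7, Junb, P2rx4, Nadk and again Arap3, at 0.20 to 0.36. Nearest to the mean of Alad, Urod, Cpox and Fech were Odc1, C1qbp, B3glct, Selenbp1 and Phf10, at 0.09 to 0.18. Odc1, which makes the first polyamine, was at 20.3, 118, 69.7 and 58.5 RPM after PBS and only 14.0, 14.5 and 15.7 RPM in DT. No gene of the heme, iron or cell type lists was among the 14 genes named here. The likeness is over 7 libraries that share the contrast itself, and is given as a description.

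**Figure D5:**
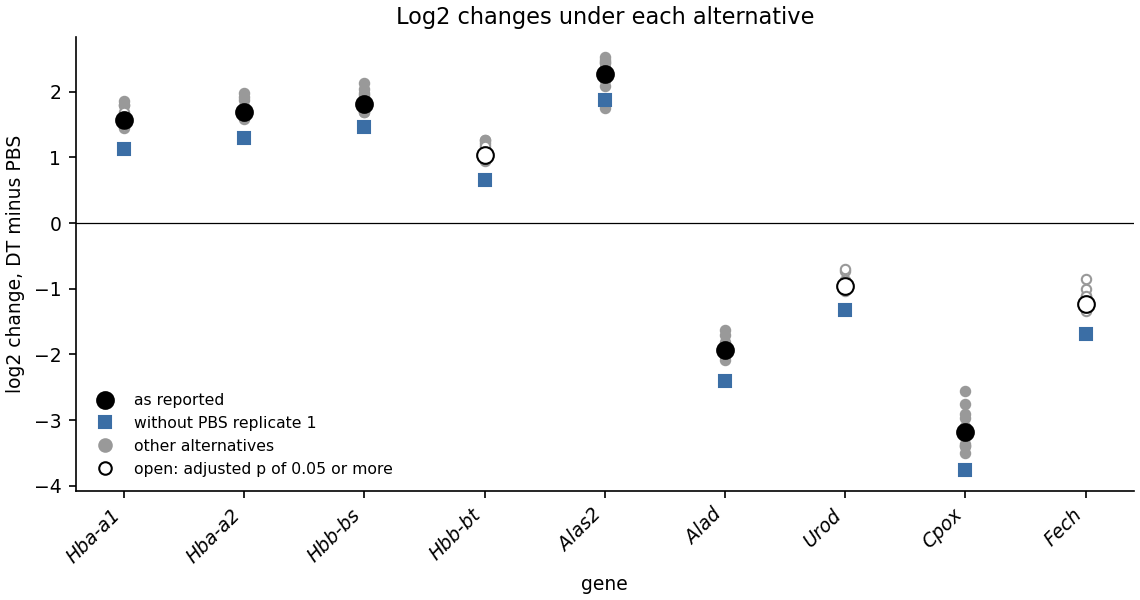
Log2 change (DT minus PBS) of each member as reported (black), without PBS replicate 1 (blue squares) and under the other 17 alternatives (grey); open symbols have an adjusted p of 0.05 or more. All points of a gene lie on one side of 0, and leaving out PBS replicate 1 gives a smaller rise for the globins and a larger fall for Alad, Urod, Cpox and Fech.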

How the data were processed

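SMARTer cDNA of 1 ng RNA was amplified for 14 cycles and sequenced as 50-base single reads, per the labels' protocols. STAR 2.5.3a, Partek and mm10 are named per the submitters' processing notes; how reads were assigned to genes, and on which annotation and strand, is not given in the sources used here. Deposited values form a table named FPKM, but they were read as RPM: in each library 1029 to 1206 genes, short and long, share 1 most frequent value. Since only 60.0% to 61.8% of values up to 20 such steps were whole within 0.02, whole reads were not recovered. Genes that averaged 1 RPM or more were tested on log2(RPM + 1), which understates changes of low genes, with limma 3.58.1 in R 4.3.3 (intensity trend, two-sided, Benjamini-Hochberg over 14100 genes). The labels call the samples biological replicates. Folds are ratios of group means. 5 values per library were compared by exact permutation over 35 splits. On simulated data limma recovered 31% of 2-fold and 68% of 4-fold changes, and 7.48% of its calls were false. A gene that did not pass may therefore still have changed. Fewer genes were changed in the simulation than were called here, so these rates need not hold for the data. Members, lists, tests and alternatives were chosen with earlier results of these data known. Named are all members, up to 6 genes per list by smallest p, other pathway steps and globins, and the 5 nearest profiles, apart from some genes that are not reported here; Apex2, Slc25a37, Hmox2, Eif2ak1 and single cell type markers were chosen after their values were seen. Of 13 names on the list of other globins, not all of them further globin genes, 9 matched a row. The rest are not analysed here. Alternatives covered the pseudocount, filter, scaling, variance model, voom on estimated reads, a replicate block and leaving out each library.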

Additional observations from a re-analysis of the deposited data

How the results depend on the processing

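The 9 members kept their direction in all 18 alternatives. Without a filter 1 member was higher and 1 lower, where more genes were tested (29186). With sample weights, and without PBS replicate 1, 4 were lower; the cause was not tested. Leaving out single libraries gave 3 to 5 members higher and 2 to 4 lower. It gave log2 differences of 1.27 to 1.96 for the globin sum, -1.67 to -0.88 for the enzyme sum and 5.30 to 6.04 for globins against early erythroid genes, 0.0130 to 1.55 percentage points for the beta share and -9.01 to -6.41 for the Hbb-bt share; these have no test, since 6 libraries cannot reach an exact p of 0.05. Over all genes, the number lower was 1709 without a filter, 1321 with median-ratio scaling and from 1208 (without DT replicate 3) to 3628 (without PBS replicate 1).

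Deviations of samples sharing a replicate number were only weakly correlated (0.0419, 0.0485 and 0.0103). DT replicates 1 and 2 correlated best with the PBS sample of their own number, and DT replicate 3 with PBS replicate 4 (0.0484). With so few samples such correlations cannot show whether the samples were paired. With the replicate block 5 members were higher and 2 lower, Hbb-bt passing at 0.0434, and 1574 of all genes were lower.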
